A study of Homo sapiens with 372 samples.

Results

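After 48 h in 5 nM paclitaxel, 36 of 53 single A2780 cells had CDKN1A above 0 and 17 had it listed at 0. These 53 cells are part of 338 cells in 6 conditions. Cells were selected on their own measured CDKN1A value, with an E-value above 0 called CDKN1A-positive and an E-value of 0 called CDKN1A-negative, and every other gene was then compared between them. A2780 is a cultured line from a human ovarian cancer, and paclitaxel is a drug that stabilizes microtubules. The other groups were untreated control cells (46), cells given 5 nM paclitaxel for 16 h (56), 75 µM celecoxib for 2 h (63) or 16 h (61), and both drugs at these doses for 16 h (59). No culture or capture run is named as a replicate, so each condition counts as 1 sample, both sets of cells come from the same sample, and cells are not replicates. For that reason no p-value is given, each difference is a description of these cells, and SD values are spreads over cells.

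CDKN1A encodes p21, which inhibits the complexes of cyclins with cyclin-dependent kinases and binds PCNA, the sliding clamp of DNA replication. The transcription factor p53 switches on CDKN1A together with genes that restrain p53 itself (MDM2), repair DNA or supply its building blocks (DDB2, RRM2B), counter oxidative stress (SESN1, TIGAR) or act in cell death (BAX, TNFRSF10B). Paclitaxel holds cells in mitosis, and cells that leave a long mitosis can accumulate p53 and p21. In single-cell data a gene listed at 0 may have no RNA or RNA that was not captured, and these cannot be told apart here.

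A p53 site is a pair of 10-base sequences, each with a core of C, 2 bases of A or T, and G. Such pairs with both cores intact, no spacer and at most 2 mismatches in the flanks were searched within 2500 bases of the start of the canonical transcript (GENCODE version 44, hg38). Because each core reads the same way on both strands, 1 search covered both. The matches in CDKN1A and in 4 p53 targets described below are shown in the direction of the gene with the cores in capitals, since these letters are what the genes could share beyond their values.
CDKN1A, chr6:36676449-36676468, + strand: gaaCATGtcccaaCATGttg
GDF15, chr19:18385308-18385327, + strand: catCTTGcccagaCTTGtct
BTG2, chr1:203303642-203303661, + strand: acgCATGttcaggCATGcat
CCNG1, chr5:163437926-163437945, + strand: gcaCAAGcccaggCTAGtcc
ZMAT3, chr3:179070188-179070207, - strand: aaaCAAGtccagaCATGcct
The CDKN1A match lies 2256 bases before the canonical start and reaches into an untranslated exon of a longer transcript, and the GDF15 match lies 840 bases before its start and within an intron of a longer transcript. The BTG2 match is upstream of the gene, while those of CCNG1 and ZMAT3 are intronic. ZMAT3 had 0 mismatches, the CCNG1 match shown 1 and the others 2. CCNG1 had another match, not shown, in an intron 2360 bases after the start, with 2 mismatches. A match is a description and not evidence of binding.

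CDKN1A was above 0 in 67.9% of the cells at 48 h (exact Clopper-Pearson 95% interval 53.7 to 80.1%, counting error only). The share was 23.9% (12.6 to 38.8%) in control cells, 44.6% (31.3 to 58.5%) in 16-h paclitaxel cells, 36.5% (24.7 to 49.6%) in 2-h and 57.4% (44.1 to 70.0%) in 16-h celecoxib cells, and 27.1% (16.4 to 40.3%) in cells given both drugs. The intervals cover counting of cells within a sample and do not order the conditions, each of which is 1 sample.

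The E-value is the deposited log2 value of a gene after scaling to a spike-in RNA. Among the 36 positive cells at 48 h the E-value of CDKN1A ran from 0.115 through a median of 3.97 to 7.20, and 15 cells exceeded 5. In the other conditions between 3 and 6 cells exceeded 5. The highest single values, 8.75 and 9.71, were in a control cell and a cell of the combination. Near the threshold, the lowest positive cells had E-values of 0.115, 0.331, 1.33 and 1.42, against 0 in all 17 negative cells. The plot of CDKN1A in each cell shows these values.

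**Figure D1:**
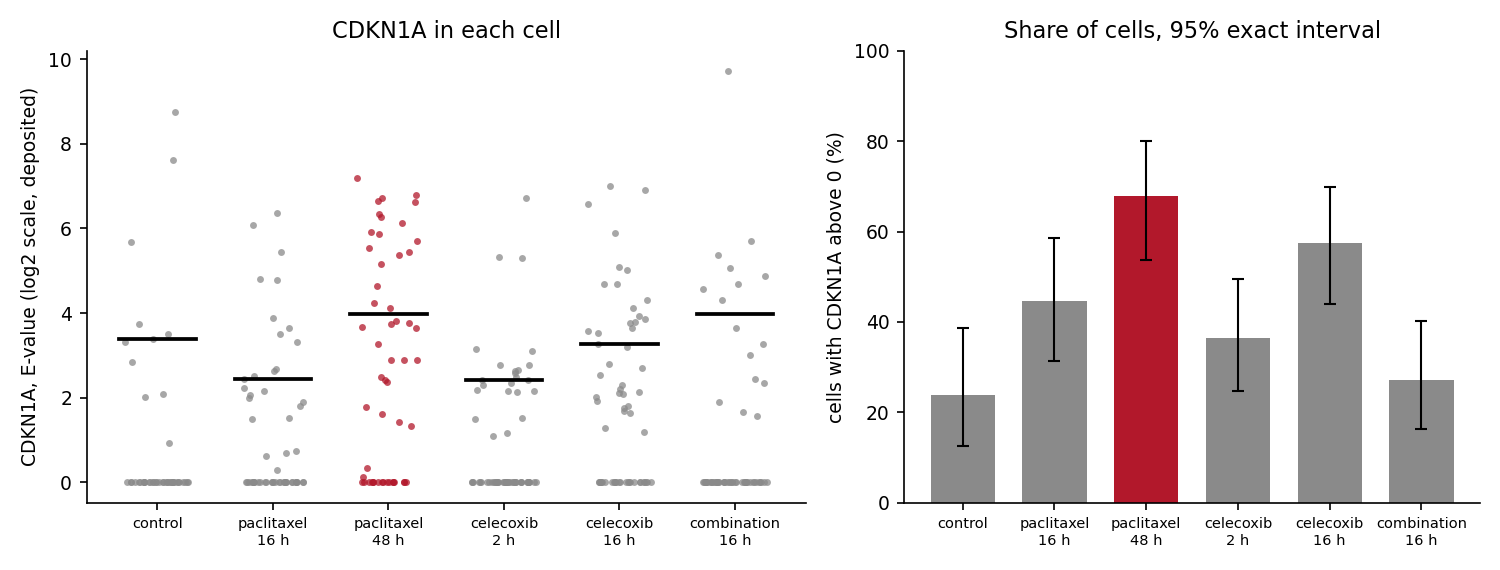
Left, the E-value of CDKN1A (log2 scale) in each cell of the 6 conditions, with paclitaxel 48 h in red and a black line at the median of the cells above 0. Right, the percent of cells above 0 with its exact 95% interval. At 48 h the share was 67.9% and the median of positive cells 3.97.

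CDKN1A-positive cells held more RNA relative to the spike-in and more detected genes. The number of genes detected, the measure of depth here, ran from 5529 to 7853 with a median of 6454.5 in positive cells and from 4751 to 6989 with a median of 5871 in negative cells. The median summed expression was 0.30 higher on the log2 scale, or 1.23-fold, with SDs over cells of 0.44 and 0.50. Of the 26 cells above the median total, 21 were positive (80.8%, 60.6 to 93.4%), against 15 of 27 at or below it (55.6%, 35.3 to 74.5%). By the authors' state per cell, 21 of 28 control-like cells (75.0%) and 15 of 25 suppressed cells (60.0%) were positive. Both blocks of library indices held positive cells, with 16 of 22 in one and 20 of 31 in the other, and no library index of the 53 cells was used by another cell. Since depth moved with the split, values are given as deposited and after every cell was set to the same total, and its part in single genes was not tested further. Markers of other cell types were few. Of 10 immune markers only LYZ was measured, with a highest E-value of 0.954, and no endothelial marker was measured. Of 9 fibroblast markers 4 were listed. The summed E-values of COL3A1 and THY1, those compared, ran from 0 to 8.82 in positive and from 0 to 6.45 in negative cells. COL1A2 was above 0 in 12 of 36 positive and 1 of 17 negative cells, and LUM in 5 and 2. The highest E-values of COL1A2 were 4.92 in positive and 6.27 in negative cells, and those of LUM 8.61 and 5.22. THY1, a surface protein of fibroblasts and other cells, differed by 0.75 at the same total. Of 12 epithelial markers 2 were listed. KRT18 was above 0 in 8 of 36 positive and 6 of 17 negative cells, and CLDN7 in 16 and 9. The part of other cell types was not tested.

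On the deposited scale, the mean E-value of 1359 of 8742 genes (15.5%) was more than log2 of 1.5 higher in positive cells, and that of 72 genes (0.824%) was lower by as much. With the totals set equal, 702 genes (8.03%) were higher and 213 (2.44%) lower. This rescaling moved the median difference of all genes from 0.22 to 0.06, and the share of higher genes among those past the limit from 95.0 to 76.7%. On both scales 699 genes were higher and 72 lower. Of these genes, 664 were detected in at least 30% of both sets of cells. The 30% minimum for comparing a gene was taken over positive and negative cells together. A gene detected only in the 36 positive cells meets it more easily than one detected only in the 17 negative cells. The counts and shares of higher and lower genes are therefore not free of this filter, which can favour higher genes. A difference larger than the SD over cells at the same total was seen for 20 genes (0.229%), among them GDF15, TRIAP1, ASCC3, ALKBH2, GPATCH4, TBCC, COPG1, VPS37A, CSNK1D and SSRP1. The counts were larger within index blocks. Within the 22 cells of one index block, 6 of them negative, 1837 genes were higher and 705 lower at the same total. Within the 31 cells of the other, 11 of them negative, 829 were higher and 590 lower.

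Targets of p53 were higher in CDKN1A-positive cells, mostly in those with most CDKN1A, as given below. Of 43 targets compared, 19 were higher and 0 lower past the limit as deposited, where 15.5 and 0.824% of all genes were. At the same total 13 were higher and 0 lower, where 8.03 and 2.44% of all genes were. Their median difference at the same total was 0.35, against 0.06 for all genes, and 41 of 43 lay above 0, as did 59.3% of all genes. The exceptions were SCO2 and PLK3, at -0.16 and -0.09, named after their values were seen. The p53 targets and most other lists lay to the right of all genes in the plot of list medians, and p53 targets had the highest median among lists of over 20 genes at the same total, though not as deposited.

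**Figure D2:**
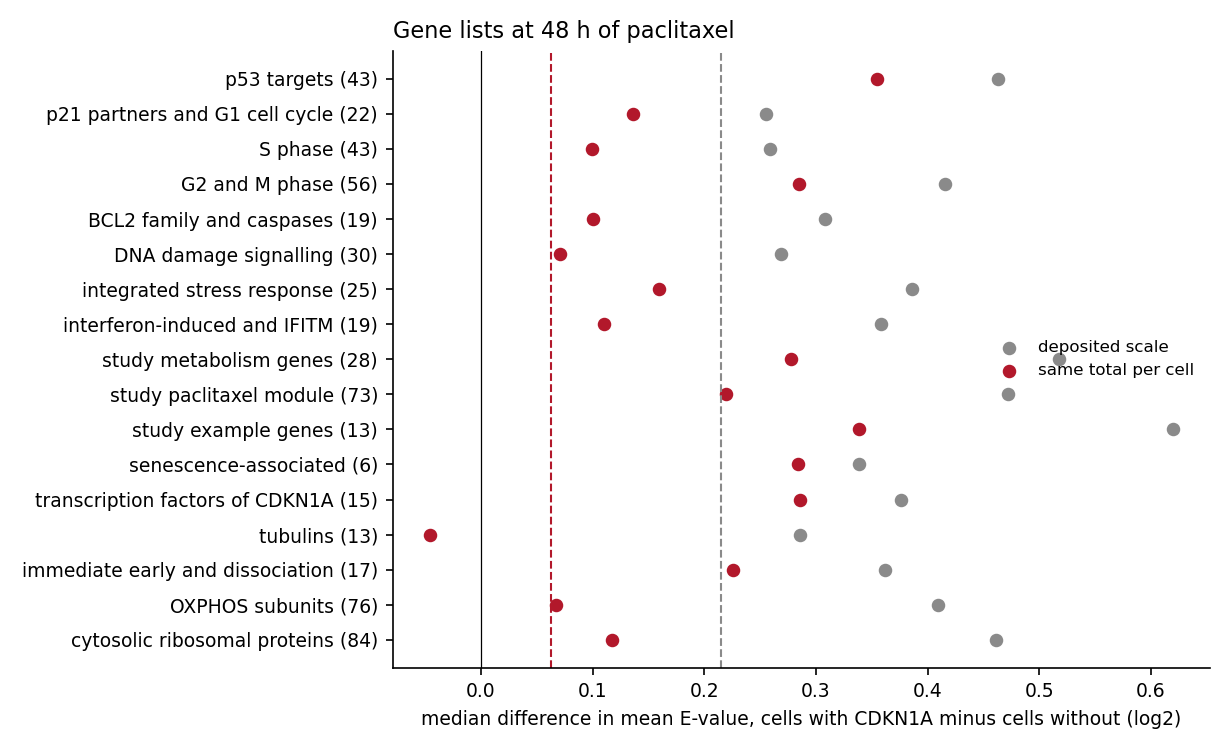
Median difference in mean E-value (log2), CDKN1A-positive minus CDKN1A-negative cells, for each gene list at 48 h of paclitaxel, with the number of genes compared in brackets. Grey points use the deposited values and red points the same total per cell, and dashed lines mark the medians of all 8742 genes, 0.22 and 0.06. The p53 targets lie at 0.46 and 0.35.

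GDF15, a secreted stress cytokine, differed most. It was above 0 in 30 of 36 positive cells, with E-values of 0 to 9.15 and a median of 4.74, and in 8 of 17 negative cells, with E-values of 0 to 4.70 and a median of 0. The ranges overlapped at the low end. Mean E-values differed by 2.97 as deposited and by 2.77 at the same total, where the SD over cells was 2.36.

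MDM2, the ubiquitin ligase that marks p53 for degradation, had a median E-value of 3.26 in positive cells (0 to 6.06) and of 0.496 in negative cells (0 to 5.14). Its mean was 1.47 higher at the same total. DDB2, which recognizes ultraviolet damage in DNA, had medians of 3.61 (0 to 6.63) and 0.585 (0 to 4.60) and a difference of 1.35. TRIAP1, a small mitochondrial protein that counters cell death, was above 0 in every positive cell, with a median of 4.44 (2.90 to 6.87), against 3.21 (0 to 5.20) in negative cells, and differed by 1.20. All of these overlapped between the groups of cells. For TRIAP1 the lowest positive cell stood at 2.90, while the negative cells reached down to 0.

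Further p53 targets were higher past the limit at the same total by smaller amounts. SESN1, a stress-induced regulator of growth signalling, was above 0 in 24 of 36 positive and 4 of 17 negative cells and differed by 0.92, and PHLDA3, an inhibitor of AKT signalling, was above 0 in 21 and 5 and differed by 0.90. Their shares in negative cells, 23.5 and 29.4%, were below the 30% detection minimum, though both are counted among the 13 higher targets. The others were BLOC1S2 (0.85), a lysosome positioning subunit, CCNG1 (0.73), cyclin G1, FBXO22 (0.73), a ubiquitin ligase subunit, SERTAD1 (0.73), TIGAR (0.71), which redirects sugar breakdown, RRM2B (0.67), a ribonucleotide reductase subunit, and TRIM22 (0.65). BTG2, an antiproliferative gene, at 0.58 and RPS27L at 0.55 stood just inside the limit. TP53I3 (0.50), BAX (0.35), ZMAT3 (0.31), TNFRSF10B (0.26) and FDXR (0.24) did not pass it. CCNG1 was -0.33 among the 26 cells with most genes detected, and FBXO22 was -0.10 in the index block of 22 cells.

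The genes most like CDKN1A across the 53 cells at the same total were ranked by Spearman's rho among 6525 genes detected in at least 50% of cells. GDF15 came first, with a rho of 0.77, followed by TRIAP1 (0.65), ASCC3 (0.63), ANKRD18A (0.57), MDM2 (0.55), BLOC1S2 (0.52), NTPCR (0.51), TIGAR (0.51), PTP4A1 (0.51) and ZNF561 (0.50). Of these 10 genes 5 were on the list of p53 targets, of which 29 were among the 6525 genes ranked. The median rho was 0.31 for those 29 targets and 0.026 for all 6525 genes. ASCC3 encodes a helicase and PTP4A1 a phosphatase. The 53 cells share 1 sample and the depth differences given above, and the rho values describe these cells.

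**Figure D3:**
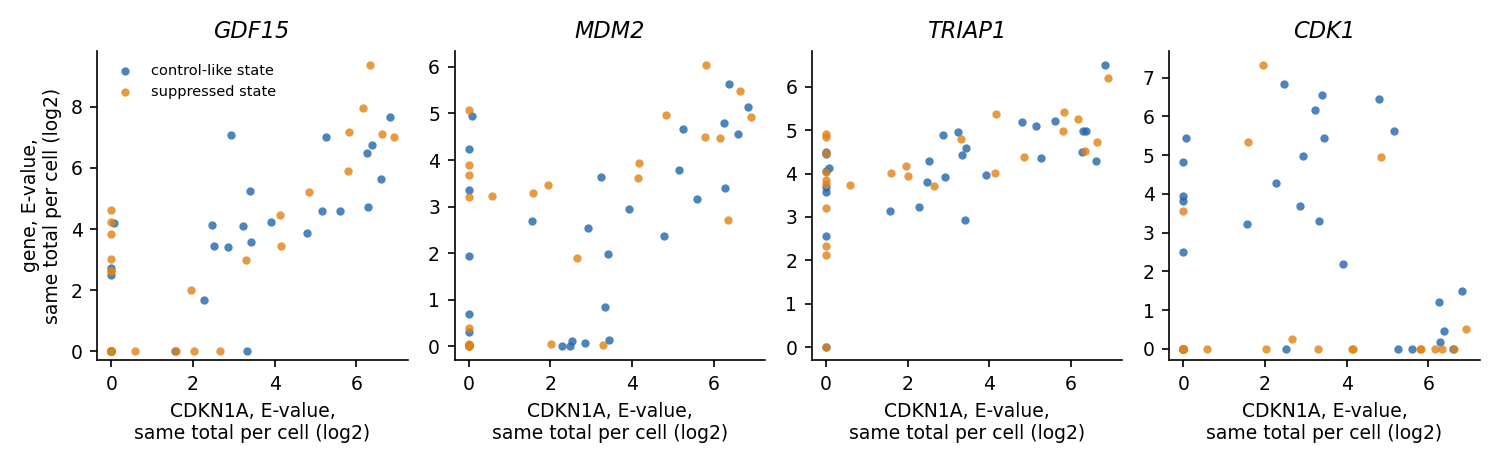
Each point is 1 of 53 cells at 48 h of paclitaxel, with the E-value of CDKN1A at the same total per cell on the x axis and that of GDF15, MDM2, TRIAP1 or CDK1 on the y axis (both log2). Colours give the authors' state. GDF15 and TRIAP1 have the highest rho values with CDKN1A, 0.77 and 0.65. On the deposited scale, which is not the one plotted, CDK1 exceeds an E-value of 2 in 5 of the 18 cells with most CDKN1A.

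Within the positive cells, the level of CDKN1A also separated the p53 targets. The 18 positive cells with least CDKN1A (low-CDKN1A cells) had E-values of 0.115 to 3.81 and the 18 with most (high-CDKN1A cells) of 4.12 to 7.20, with medians of 6374 and 6454.5 genes detected and 10 and 11 control-like cells. At the same total, 24 of 43 p53 targets were higher and 0 lower in high-CDKN1A than in low-CDKN1A cells, with a median difference of 0.68, where 888 (10.2%) of all genes were higher and 533 (6.1%) lower and their median was 0.06. Between low-CDKN1A and negative cells the median difference of the targets was 0.19, against 0.03 for all genes. The mean E-value of the list per cell was 1.41 (SD 0.34) in negative, 1.55 (SD 0.23) in low-CDKN1A and 2.25 (SD 0.35) in high-CDKN1A cells. GDF15 was above 0 in 18 of 18 high-CDKN1A cells (E-values of 4.27 to 9.15, median 6.26) and in 12 of 18 low-CDKN1A cells (0 to 7.45, median 2.79), a difference of 3.49. FDXR, a mitochondrial electron carrier, was above 0 in 14 of 18 high-CDKN1A, 0 of 18 low-CDKN1A (3 cells of 18 as the limit of a count of 0, a detected share of up to 16.7%) and 4 of 17 negative cells. BTG2 differed by 1.49, TP53I3 by 1.32 and TNFRSF10B by 1.03 between high- and low-CDKN1A cells, although none of them passed the limit between positive and negative cells at the same total.

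Genes of G2 and M phase followed another course, highest at intermediate CDKN1A. Of 56 compared, 14 were higher and 3 lower in positive than in negative cells at the same total, with a median of 0.28, against 8.03 and 2.44% and a median of 0.06 for all genes. With cells split at the median of CDKN1A instead, this median was -0.27. Within the positive cells 0 were higher and 40 lower in high-CDKN1A cells, where 10.2 and 6.1% of all genes were, with a median difference of -0.97. The mean E-value of the list per cell was 1.87 (SD 0.64) in negative cells, 2.69 (SD 1.01) in low-CDKN1A cells and 1.66 (SD 0.93) in high-CDKN1A cells. The SDs overlapped between all 3 sets of cells.

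CDK1, the kinase that drives entry into mitosis, was above an E-value of 2 in 5 of 17 negative, 11 of 18 low-CDKN1A and 5 of 18 high-CDKN1A cells, with medians of 0, 3.72 and 0.309. Its mean at the same total was 1.29 higher in positive than in negative cells, and stood at -1.61 in high- against low-CDKN1A cells. CCNB1, a partner of CDK1, had medians of 2.84, 5.71 and 3.71 in the 3 sets and was -1.68 in high- against low-CDKN1A cells. CCNB2, its relative, had medians of 3.78, 3.84 and 0.402, was -1.06 in positive against negative cells and -2.15 in high- against low-CDKN1A cells. TUBA1B, an alpha-tubulin, was -1.72 in the same comparison.

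S phase genes showed the same order with less difference. Of 43 genes 6 were higher and 0 lower in positive cells at the same total, where 8.03 and 2.44% of all genes were, with a median of 0.10. In high- against low-CDKN1A cells 0 were higher and 21 lower, where 10.2 and 6.1% of all genes were, with a median of -0.56. The direction between positive and negative cells was not stable, since the median was -0.40 among the 26 cells above the median total and -0.12 among control-like cells.

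**Figure D4:**
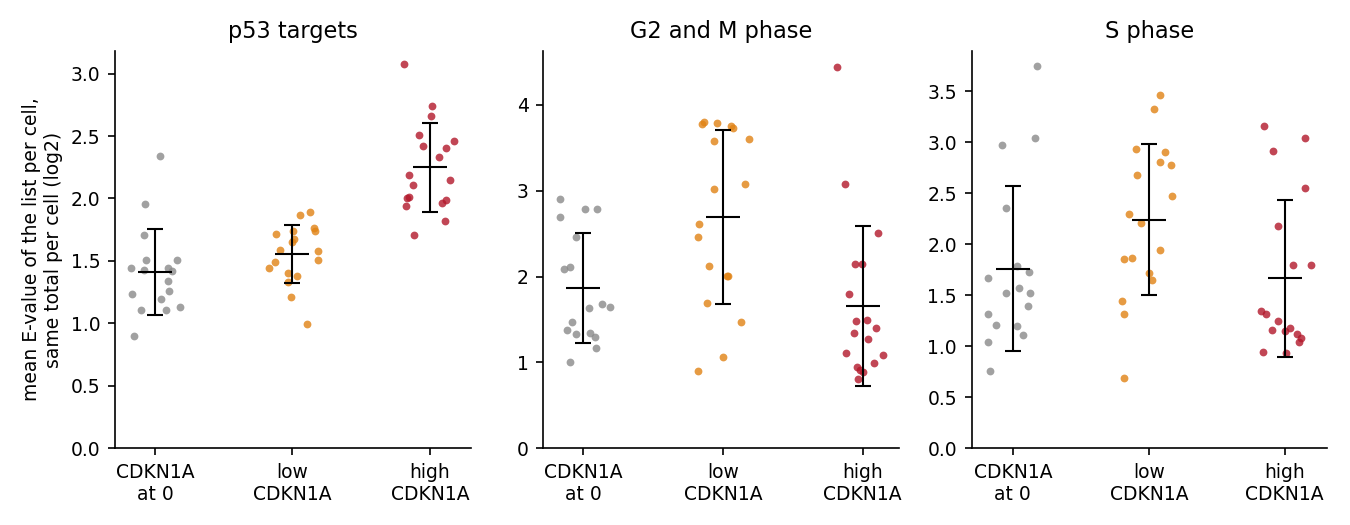
Mean E-value per cell at the same total (log2) of the p53 targets, the G2 and M phase genes and the S phase genes, in 17 CDKN1A-negative cells the 18 low-CDKN1A and the 18 high-CDKN1A cells. Points are cells and bars the mean and SD over cells. The p53 targets are highest in high-CDKN1A cells, and the G2 and M phase genes average 1.87, 2.69 and 1.66.

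Partners of p21 and cyclins of G1 differed gene by gene. Of 22 compared at the same total, 6 were higher and 1 lower, where 8.03 and 2.44% of all genes were. Among the higher genes, PCNA is also on the S phase list and CDK1 on the G2 and M phase list. PCNA, which is also a p53 target, had a median E-value of 5.10 in positive cells (2.41 to 7.40) and of 3.86 in negative cells (0 to 6.96), and differed by 1.42. Between high- and low-CDKN1A cells it differed by 0.20. CCNE1, cyclin E1, was above 0 in 20 of 36 positive and 4 of 17 negative cells and differed by 1.11, and CCNA2, cyclin A2, by 0.64. CCND1, cyclin D1, was lower in positive cells, with medians of 3.40 (0 to 5.78) and 3.55 (2.08 to 5.42) and a difference of -0.66. CDK2 and CDK4, which p21 inhibits, differed by 0.06 and -0.01. Between high- and low-CDKN1A cells CCNE1 stood at -0.34, CCNA2 at -0.91, CDK2 at -0.84, CDK4 at 0.40 and CCND1 at 0.72. The medians of CCND1 were 3.55 in negative, 2.63 in low-CDKN1A and 3.91 in high-CDKN1A cells. CCNE1 was -0.27 among cells above the median total. With cells split at the median of CDKN1A instead, CCNA2 was -0.16 and CCND1 0.022.

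The other lists are read against the 8.03% of all genes higher and 2.44% lower at the same total. In the integrated stress response, 5 of 25 genes were higher and 1 lower at the same total, with a median of 0.16. ATF4, its central transcription factor, was 0.95 higher but -0.88 among cells above the median total. TRIB3, a target of ATF4, was above 0 in 11 of 18 low-CDKN1A, 3 of 18 high-CDKN1A and 2 of 17 negative cells. Its share in negative cells, 11.8%, was below the 30% detection minimum. Of 19 interferon-induced and IFITM genes 2 were higher (10.5%), near the share of all genes. IFITM1 and IFITM2, membrane proteins that restrict virus entry, had medians of 7.01 and 7.58 in positive and 6.22 and 6.56 in negative cells and differed by 0.93 and 1.02. They are near copies of each other, so that reads may be shared between them. In the list of 15 transcription factors of CDKN1A, 3 were higher and 0 lower, and of 30 DNA damage genes 2 were higher (6.67%), near that share, and 0 lower. Of 19 BCL2 family and caspase genes and of 6 senescence-associated genes, 0 passed the limit at the same total in either direction, and 2 and 1 were higher on the deposited scale.

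Of 13 tubulins 0 were higher and 3 lower, with a median of -0.05 at the same total and 0.29 as deposited. Among 17 immediate early and dissociation genes, 0 passed the limit at the same total in either direction, with a median of 0.23. OXPHOS subunits (76 genes) had a median of 0.41 as deposited and 0.07 after rescaling, and the 84 cytosolic ribosomal proteins 0.46 and 0.12. The study's 28 metabolism genes, 73-gene paclitaxel module and 13 example genes had medians of 0.28, 0.22 and 0.34 at the same total, with 7, 13 and 5 higher and 1, 2 and 0 lower. The study chose these lists on cells of the same series.

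The largest differences outside the p53 list were of mixed function. S100A11, a calcium-binding protein, was above 0 in 25 of 36 positive and 7 of 17 negative cells, with medians of 5.50 and 0, and differed by 1.72 at the same total. ALKBH2, which repairs alkylated DNA, was above 0 in 33 and 8, with medians of 3.41 and 0, and differed by 1.68. ASCC3 (1.60), ID3 (1.58), an inhibitor of transcription factors, CHCHD6 (1.56), a mitochondrial protein, GPATCH4 (1.52), TBCC (1.47), a tubulin folding cofactor, and GSTA4 (1.44), a glutathione transferase, completed the 10 largest with GDF15 and MDM2. ID3 was -0.25 among control-like cells and S100A11 -0.30 among the cells with most genes detected.

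COPG1, a coat subunit of transport vesicles, was lowest relative to negative cells. It was above 0 in 20 of 36 positive cells, with a median of 0.130 (0 to 4.64), and in 14 of 17 negative cells, with a median of 3.37 (0 to 4.99), a difference of -2.13. VPS37A (-1.46), an ESCRT subunit, CSNK1D (-1.29), a casein kinase, ZFAND2A (-1.19), TMEM222 (-1.19), SSRP1 (-1.18), a histone chaperone subunit, SMN2 (-1.15), PRMT5 (-1.10), an arginine methyltransferase, PCDH9 (-1.09) and PMM1 (-1.07) followed. SMN2 and SMN1 are near-identical copies. SMN1 was 1.01 higher, and the sum of both differed by 0.21, so neither value is certain. PRMT5 was 0.42 in the index block of 22 cells.

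The same split was made in the 5 other conditions, whose cells took no part in ranking genes at 48 h. The split and the gene lists were chosen with earlier results of these data known. At the same total, 5.57% of genes were higher and 3.28% lower in control, 6.42 and 1.7% in 16-h paclitaxel cells, 6.12 and 2.43% in 2-h and 5.66 and 2.59% in 16-h celecoxib cells, and 5 and 3.37% in combination cells. The p53 targets had medians of 0.50, 0.26, 0.22, 0.25 and 0.18 in that order, with 18, 11, 7, 15 and 9 of 43 higher and 0 lower in each condition. All-gene medians there were 0.02 to 0.05. GDF15 passed the limit in all 5, with differences of 1.42 to 1.92. MDM2, TRIAP1, ASCC3, NTPCR and RPS27L were higher past the limit in 4 of 5. Differences between conditions were not tested.

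Of the 702 genes higher at 48 h, 86 (12.3%) were also higher in control, 104 (14.8%) in 16-h paclitaxel, 123 (17.5%) in 2-h celecoxib, 89 (12.7%) in 16-h celecoxib and 76 (10.8%) in combination cells. These were 17.7, 18.5, 23.0, 18.0 and 17.4% of the higher genes of those conditions. Of the 213 lower genes, 13, 5, 5, 11 and 9 were also lower, or 6.10, 2.35, 2.35, 5.16 and 4.23%, where 3.28, 1.7, 2.43, 2.59 and 3.37% of all genes were. The 10 largest falls were lower past the limit in 0 or 1 of 10 cases per condition and higher past it in 1 to 3, and had medians of -0.0040 to 0.16. COPG1 was -0.72 in 16-h paclitaxel cells and not past the limit elsewhere. ALKBH2, GPATCH4, TBCC and GSTA4 passed the higher limit in 0 of 5. The plot of differences in each condition shows the p53 targets to the right of 0 in most conditions, and the falls scattered around 0.

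**Figure D5:**
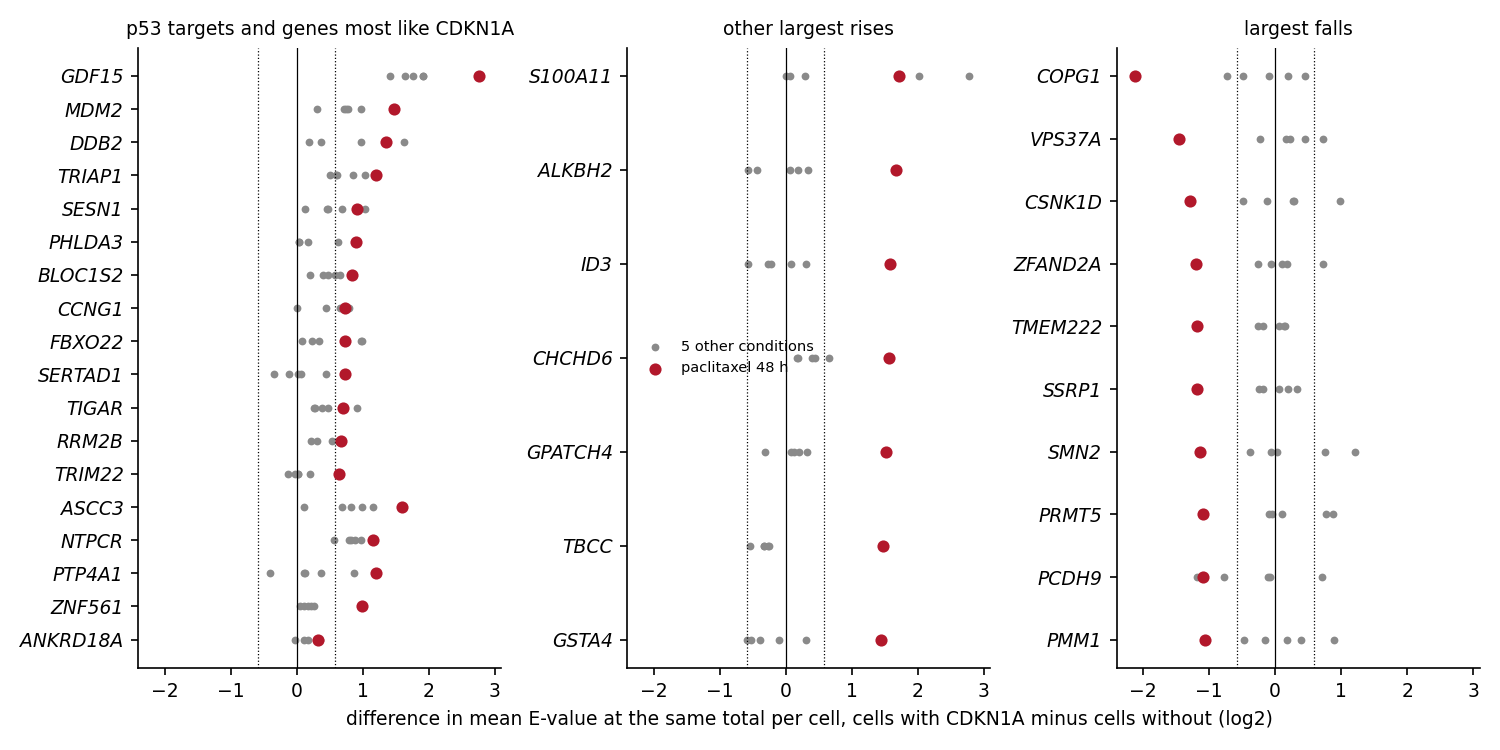
Difference in mean E-value at the same total per cell (log2), CDKN1A-positive minus CDKN1A-negative cells, for p53 targets past the limit and genes most like CDKN1A, for the other largest rises, and for the largest falls. Red points are paclitaxel 48 h, grey points the 5 other conditions, and dotted lines the limit of log2 of 1.5. GDF15 is past the limit in all 5 other conditions, and TBCC in 0.

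The course of the cell cycle lists with the level of CDKN1A varied by condition. The median difference of G2 and M phase genes between high- and low-CDKN1A cells, cut at the middle of the positive cells of each condition, was -1.53 in control (5 cells each), 0.49 in 16-h paclitaxel cells (12), -0.05 in 2-h (11) and -0.37 in 16-h celecoxib cells (17), and 0.29 in combination cells (8), against -0.97 at 48 h (18). That of S phase genes was -0.79, 0.44, -0.82, -0.44 and 0.46 in the other conditions in that order, against -0.56 at 48 h. That of p53 targets was 0.51, 0.25, 0.24, 0.45 and 0.28, above the median of all genes in each condition.

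The p53 sites were then counted around the starts of the genes. A match was present at 195 of 8712 genes searched (2.24%), at 19 of 701 genes higher at the same total (2.71%), and at 7 of 212 genes lower (3.30%). Of the 42 p53 targets searched 11 had one (26.2%), including 3 of 13 past the limit and 8 of 29 that were not. Of the 10 genes most like CDKN1A, GDF15 and PTP4A1 had a match. The search found 0 matches at MDM2, TRIAP1 and DDB2, which says only that these letters are not in this window.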

How the data were processed

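Smart-seq2 libraries of single A2780 cells were captured on the C1 system, and the sources used here do not give the number of capture runs. The authors ran Trim Galore, then RSEM 1.3.0 through Bowtie2 against hg38 transcripts (GENCODE version 28) plus 3 spike-in RNAs. They scaled each cell to its highest spike-in, discarded cells poor in housekeeping transcripts, and retained a gene if any condition had it in more than 30% of cells. What they deposited is a log2 value, E, of the scaled TPM divided by 10 with 1 added. The table holds 9664 genes in 338 cells and the authors' state of each cell. Read counts, and so the read depth, are unknown. No doublet caller was run.

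Of 65 cells labelled for 48 h of paclitaxel, 53 had values. Cells were grouped by GEO's treatment labels and split on CDKN1A at 0. Genes above 0 in at least 30% of the 53 cells were compared (8742, without CDKN1A) by the difference of mean E-values, on the deposited scale and after linear values were rescaled to the median total of all cells. The limit was log2 of 1.5 (0.585). A difference of mean log2 values understates the change of low genes. Named genes were the 10 largest differences in each direction past the limit on both scales and detected in 30% of both groups, p53 targets past the limit with a fixed set, up to 4 genes of each other list, partners of p21, and the 10 genes most like CDKN1A, of which 59 are described. A gene of the fixed set is not reported here. The split, the lists and the rules were chosen with earlier results of these data known. Low- and high-CDKN1A cells were compared after seeing the data. The methods name no stranded preparation, so overlapping genes may share reads. Steps were tried on the real 48-h paclitaxel cells, split at random, with known changes put into their values. The outcome of that trial is not given here. Alternatives were index blocks, cells above or below the median total, single states, other limits of the split, another pseudocount, linear means and detection filters. GENCODE version 44 names matched 9632 genes. Tools were matplotlib 3.10.9, scipy 1.17.1, pandas 2.3.3, numpy 2.4.6 and Python 3.11.15.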

Additional observations from a re-analysis of the deposited data

Results flagged for a closer look

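Some of the named genes were past the limit in opposite directions at 48 h of paclitaxel and in another condition. Each value is for CDKN1A-positive minus CDKN1A-negative cells at the same total. RPL22L1 and TLCD1 are not described above, and several others are largest falls, chosen for their values at 48 h. In the other conditions 5 to 6.42% of all genes were higher past the limit and 1.7 to 3.37% lower. The difference between conditions was not tested for any of these genes, and each condition is 1 sample. IFITM1 was 0.93 at 48 h and -1.59 in 16-h paclitaxel cells, and IFITM2 was 1.02 and -1.47. The mitotic cyclin CCNB2 was -1.06 at 48 h and 1.10 in 2-h celecoxib cells, and PMM1 was -1.07 and 0.89. PRMT5 was -1.10 at 48 h against 0.77 in control and 0.88 in 16-h paclitaxel cells. SMN2, a near-identical copy of SMN1, was -1.15 against 0.75 in 16-h paclitaxel and 1.20 in combination cells. PCDH9 was -1.09 against 0.71 in control. Set against 16-h celecoxib cells, CSNK1D was -1.29 and 0.98, VPS37A -1.46 and 0.72, ZFAND2A -1.19 and 0.73, and the ribosomal protein gene RPL22L1 0.69 and -1.02. TLCD1 was -0.99 at 48 h and 0.79 in 16-h paclitaxel cells.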

How the results depend on the processing

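The p53 targets kept a median above that of all genes in all 14 alternatives that changed a value, with values of 0.28 to 0.83 (0.83 with a pseudocount of 1). GDF15 ranged from 2.08 to 3.98, MDM2 from 0.81 to 2.42, TRIAP1 from 0.51 to 1.64, DDB2 from 0.31 to 2.09 and COPG1 from -3.43 to -0.86. In the 5 other conditions the p53 median stayed above that of all genes with CDKN1A above 1, a pseudocount of 1 or linear means. Counts of genes past the limit depended on the cells used, and each subset of cells gave more lower genes. Negative cells numbered 6 and 11 in index blocks 2 and 4, and 5 and 12 above and at or below the median total. There were 7 among control-like and 10 among suppressed cells, and 5 and 12 with more and fewer genes detected. Means over fewer cells vary more, and the part of subset size in counts and signs was not tested. In index block 2, 2843 genes were higher and 204 lower on the deposited scale, and 1837 and 705 at the same total. In index block 4, 321 and 590 were lower on the 2 scales. Above the median total, 1089 were lower on the deposited scale, and 1108 were higher and 1272 lower at the same total. At or below it the values were 323, 1135 and 547. Control-like cells gave 486 and 760 lower, and suppressed cells 349 lower, 1356 higher and 612 lower. Cells with more genes detected gave 870 and 1053 lower, and those with fewer 359 lower, 1094 higher and 639 lower (both sets chosen after seeing the data). A pseudocount of 1 gave 3436 higher and 447 lower, and 2453 and 822 at the same total, and linear means gave 164 and 531 lower. The S phase median turned to -0.40 above the median total, -0.12 in control-like cells, -0.20 and -0.094 above and below the median of genes detected, and -0.15 with cells split at the median of CDKN1A, where the G2 and M phase median was -0.27. Of 48 named genes past the limit, 37 kept their sign in 12 alternatives. The others turned: above the median total ATF4 to -0.88, CCNE1 to -0.27 and ZNF561 to -0.27, in control-like cells ID3 to -0.25, NTPCR to -0.10 and ZNF561 to -0.074, with more genes detected ATF4 to -0.35, CCNG1 to -0.33 and S100A11 to -0.30, in index block 2 FBXO22 to -0.10 and PRMT5 to 0.42, and at the CDKN1A median CCNA2 to -0.16 and CCND1 to 0.022. The cause was not tested. All 53 wells were noted as 1 cell, so leaving out others changed nothing. Each condition is 1 sample, so no sample could be left out. No paired analysis was possible because both sets of cells come from 1 sample and cell numbers pair nothing. Without read counts, a gene listed at 0 may be missed RNA.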
